A study of Homo sapiens with 26 samples.

Results

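Gene expression in the first 12 h after a change to acidic medium was compared with that in neutral medium in U2OS cells, an established human osteosarcoma line. The comparison used 6 of the 26 libraries of a 52 h course: the 3 libraries taken at pH 6.3 at 4, 8 and 12 h and the 3 taken at pH 7.4 at the same hours, paired by hour. The cells carried a circadian reporter (Arntl::dLUC, a luciferase gene driven by the promoter of a clock gene). Each medium was DMEM with 5% serum, buffered with PIPES and HEPES (each at 25 mM), and each held 0.1 µM dexamethasone, so both arms were exposed to a glucocorticoid throughout. Dishes were sealed and kept without added carbon dioxide. The 4 to 24 h samples came from dishes started a day after those of the 28 to 52 h samples, and both media of an hour were harvested together. Every hour had 1 library for each pH, from 1 dish as far as the labels say, so the 3 hours stand in for replicates, and p-values measure the spread over hours, which holds change with time as well as noise. The series as a whole asks how acid bears on the circadian clock, hypoxia and mTOR.

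Acidic medium lowers the pH inside cells as well as around them, and glycolysis, growth signalling and protein synthesis all depend on that pH. Immediate early genes are transcribed within minutes of a signal and are normally silenced again by feedback inhibitors of the ERK pathway. TXNIP is transcribed by MondoA in step with sugar phosphates and energy state, and its protein restrains glucose uptake. Dexamethasone activates the glucocorticoid receptor, which sets cellular clocks to a common phase through genes such as PER1. The receptor also induces TSC22D3 and FKBP5, of which FKBP5 restrains the receptor itself.

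Values are FPKM (fragments scaled to transcript length and library size) as the authors deposited them. A difference is that of log2(FPKM + 1), pH 6.3 minus pH 7.4, averaged over the 3 hours, so the change of low genes is understated. SE is the standard error of that average in the limma model, which takes the spread from all 26 libraries and not from the 3 hours alone. From the spacing of low FPKM values the libraries were estimated to hold 22.4, 28.6 and 9.83 M fragments (M, mega) at pH 7.4 (4, 8 and 12 h) and 28.9, 11.3 and 20.0 M at pH 6.3, against 20.8 to 36.1 M in the later libraries. The shallow library thus lay on the acidic side at 8 h and on the neutral side at 12 h. Of 10 osteoblast and mesenchymal markers 5 were at 5 FPKM or more in all 6 libraries, while SP7 and TWIST1 were listed at 0 in each. Their summed level was 1787 to 1878 FPKM at pH 7.4 and 2155 to 2346 at pH 6.3. The 12 epithelial markers summed to 193.8 to 283 FPKM at pH 7.4 and 318 to 332 at pH 6.3, with only KRT8 and KRT18 at 5 FPKM or more in all 6. Leukocyte markers (12) summed to 19.5 to 24.9 and 17.0 to 21.1 FPKM, of which LCP1 held the most. Endothelial markers (5) stayed below 2 FPKM in sum, and the epithelial marker CLDN3 was at 0. The 13 messages of mitochondrial DNA made up 17.7%, 19.2% and 17.6% of all FPKM at pH 7.4 and 16.6%, 13.9% and 13.4% at pH 6.3. The part of these shifts in the results was not tested, and in bulk RNA fewer cells of a type cannot be told apart from less RNA per cell.

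Genes were called with limma on the 11838 genes that averaged 1 FPKM or more across all 26 libraries, in 1 model with the hour as a block and a separate acid effect for each part of the course, at a Benjamini-Hochberg adjusted p below 0.05. In the first 12 h 607 genes (5.13%) rose and 1698 (14.3%) fell at pH 6.3. Of these 177 rose and 428 fell by at least 2-fold on the log2(FPKM + 1) scale. All 3 hours pointed the same way for 515 of those that rose and 1488 of those that fell. The 3 acidic libraries lay above all 3 neutral ones for 1230 genes (10.4%) and below them for 2042 (17.2%). The median difference of all genes was −0.12. With quantile normalization this median moved to 0.00 and the genes called were 725 higher and 1016 lower, which put the higher share of calls at 41.6% in place of 26.3%. With upper-quartile scaling the share was 38.2%, from 777 and 1255 genes.

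The call rests on the spread of all 26 libraries. When limma weighted the libraries by their spread, the pairs of 4 and 12 h had the lowest weights of the course. These were 0.176 and 0.341, against 1.63 at 8 h and up to 7.71 at 32 h. The spread of the first 12 h may thus be wider than the pooled one, and SE and adjusted p too small, which was not tested. In the 6 libraries alone, which leave 2 residual degrees of freedom, limma called 6 genes higher and 0 lower, with 738 and 1413 at an unadjusted p below 0.05. Those 6 were TXNIP, CYR61, CTGF, ANKRD1, DUSP1 and ZFP36. Leaving out 1 hour at a time gave 1264 higher and 3240 lower genes without 4 h, 146 and 367 without 8 h, and 236 and 613 without 12 h. Calls of lists and genes in these fits, given below, are to be read against these totals of the 11838 genes. A core of 130 higher and 326 lower genes was called in the full fit and in each of these 3 fits. With the 4 h pair alone 45 genes were higher and 136 lower.

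At single hours, each a comparison of 2 libraries, the fewest genes were 2-fold apart at 4 h. Among genes with at least 5 FPKM in the higher library, 154 of 9008 (1.71%) were at least 2-fold higher at pH 6.3 at 4 h and 202 (2.24%) lower. At 8 h these were 419 (4.62%) and 891 (9.83%) of 9064 genes, and at 12 h 592 (6.37%) and 1627 (17.5%) of 9289. The median difference of all genes was 0.04, −0.13 and −0.23 at the 3 hours. Across 11838 genes, which are not independent replicates, the difference at 4 h was nearly unrelated to that at 12 h (r = −0.04) and weakly related to that at 8 h (r = 0.19), while those at 8 and 12 h went together (r = 0.71). The difference at 12 h correlated with the mean difference of 16 to 24 h at r = 0.69, and that at 4 h at r = −0.04. Of the 3 hours, 4 h was thus the one least like the others.

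**Figure D1:**
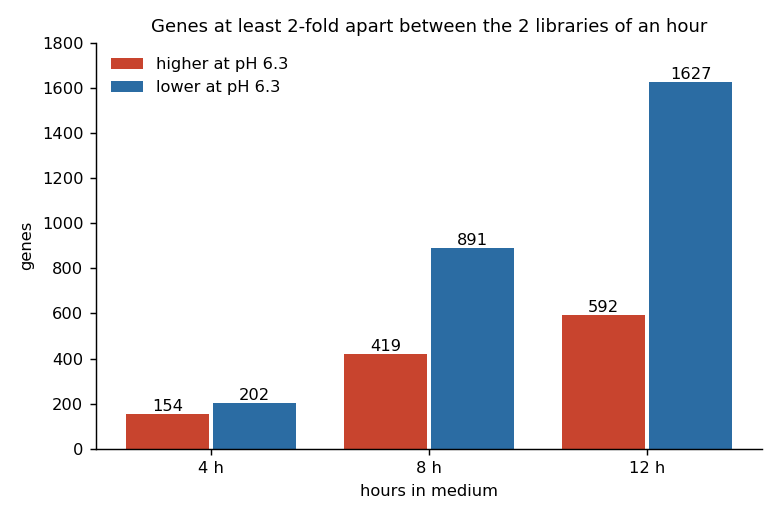
Number of genes (vertical axis, from 0) at least 2-fold higher (red) or lower (blue) at pH 6.3 than at pH 7.4 at 4, 8 and 12 h, among genes with at least 5 FPKM in the higher library; each hour compares 2 libraries. The bars grow from 154 and 202 genes at 4 h to 592 and 1627 at 12 h.

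TXNIP, the thioredoxin-binding inhibitor of glucose uptake, showed the largest increase of all. Its level was 1.57, 4.12 and 8.17 FPKM at 4, 8 and 12 h at pH 7.4 and 26.2, 87.2 and 169 FPKM at pH 6.3. The lowest acidic value was above the highest neutral one, and the log2 difference was 3.91 (SE 0.2, adjusted p = 4.29e-07). CYR61 (CCN1), a secreted matrix protein and classical target of YAP and TEAD, came next, with 126, 53.2 and 51.7 FPKM at pH 7.4 and 779.5, 1234 and 617 at pH 6.3. The groups did not overlap and the log2 difference was 3.56 (SE 0.24, adjusted p = 7.4e-06). In ZFP36, whose protein (tristetraprolin) speeds the decay of AU-rich messages, neutral libraries held 1.94, 0.817 and 0.710 FPKM and acidic ones 18.3, 15.5 and 10.4. It rose by 2.88 (SE 0.21, adjusted p = 1.09e-05), with each acidic library above every neutral one. MAFF, a small Maf transcription factor, was at 11.3, 1.73 and 1.52 FPKM at pH 7.4 and 44.1, 35.4 and 23.7 at pH 6.3, a rise of 2.97 (adjusted p = 9.11e-05). The 12 largest increases by the rule used here also held NR1D1, SPRY4, PDK4 and ATF3, described with their groups, and RBM15, an RNA-binding component of the m6A machinery, which rose by 2.16. They further held 3 genes whose reads are uncertain. SUMO4 (2.57) is an intronless near-copy of SUMO2, and TMED7-TICAM2 (2.42) is a readthrough that shares exons with its neighbours. A row named MALAT1 (3.1) has the identifier ENSG00000279576, which was not matched in GENCODE 29, so its transcript is uncertain. Of these 12 genes 11 kept their call without any 1 hour, the exception being NR1D1.

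**Figure D2:**
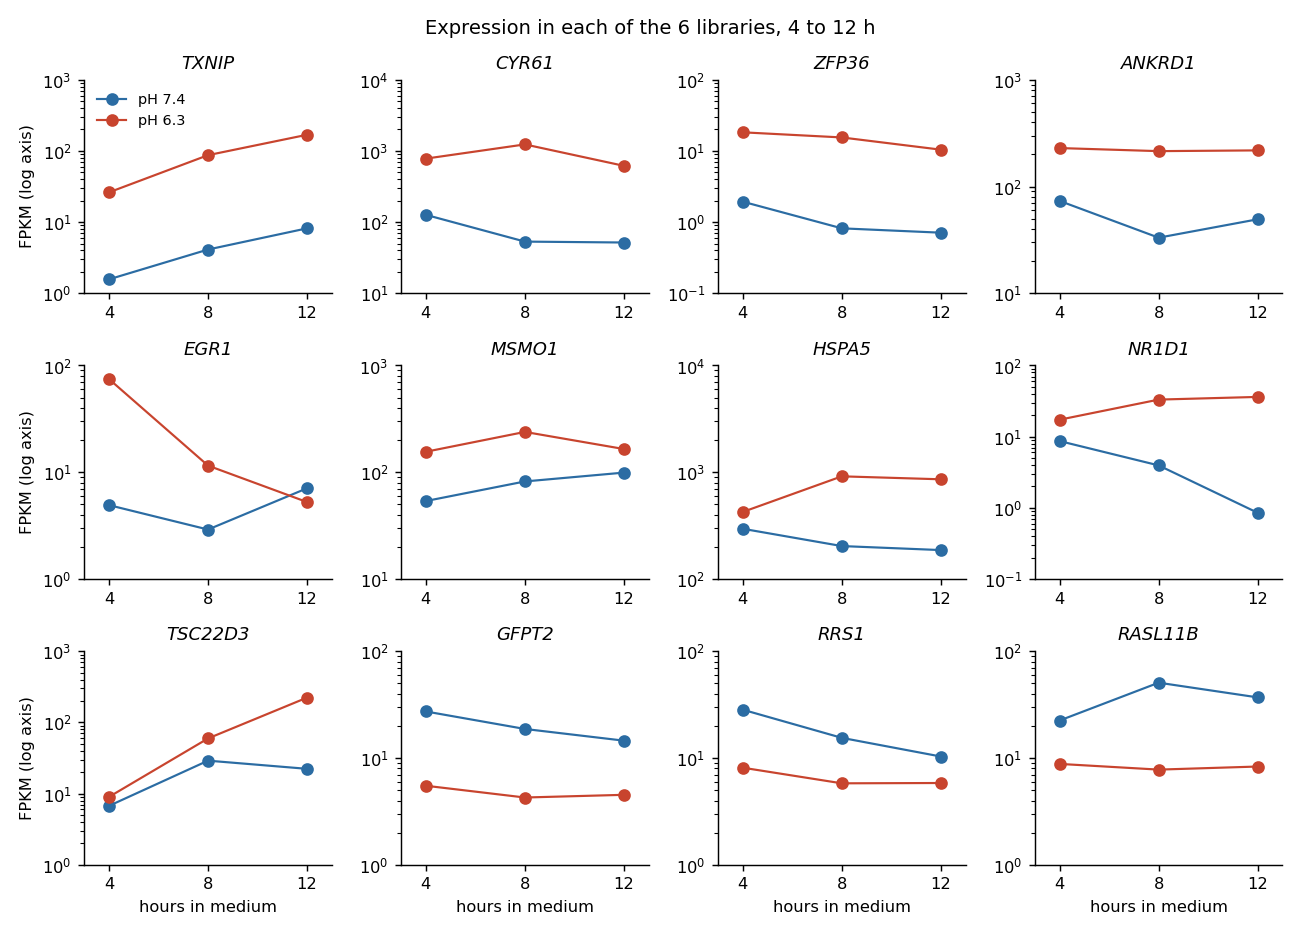
FPKM (log axis) of 12 genes in each of the 6 libraries at 4, 8 and 12 h, blue for pH 7.4 and red for pH 6.3; each point is 1 library. TXNIP runs from 1.57 to 8.17 at pH 7.4 and from 26.2 to 168.6 at pH 6.3, while EGR1 is apart at 4 h (4.92 against 74.6) and crosses at 12 h.

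On the side of the decreases the largest was EXO5, a single-strand exonuclease of DNA repair, with 16.6, 23.7 and 24.7 FPKM at pH 7.4 and 6.37, 2.63 and 2.63 at pH 6.3. The neutral libraries lay above all acidic ones and the difference was −2.28 (SE 0.26, adjusted p = 0.000227). NCOA5, a coregulator of nuclear receptors, was at 25.9, 24.1 and 24.3 FPKM in neutral and 9.56, 3.67 and 3.09 in acidic medium (−2.14, adjusted p = 0.000188). RASL11B, which encodes a small GTPase-like protein, was at 22.5, 50.8 and 37 FPKM at pH 7.4 and at a flat 8.81, 7.79 and 8.32 at pH 6.3 (−1.95, adjusted p = 0.000175). For GFPT2, an enzyme that feeds glucose into the hexosamine pathway, the neutral values were 27.3, 18.7 and 14.5 FPKM and the acidic ones 5.5, 4.27 and 4.52. It fell by 1.84 on the log2 scale (SE 0.21, adjusted p = 0.000199) and the gap was widest at 4 h. The other 8 of the 12 largest decreases were S1PR5 (a sphingosine 1-phosphate receptor), CFAP44 (a cilia protein), TMEM177 (a mitochondrial assembly factor), NOX4 (an NADPH oxidase), GEN1 (a resolvase of DNA junctions), SLC46A3 (a lysosomal transporter), KIAA1211L and MTERF1 (a mitochondrial transcription terminator). Their differences ran from −2.02 for S1PR5 to −1.79 for MTERF1. In S1PR5 the gap opened only after 4 h: it was 2.73, 12.5 and 23.5 FPKM at pH 7.4 and 2.67, 1.47 and 1.03 at pH 6.3, so the 2 libraries of 4 h were alike. Calls for S1PR5, NOX4 and SLC46A3 were lost without 8 h (adjusted p = 0.101, 0.0888 and 0.103) and without 12 h (adjusted p = 0.111, 0.0814 and 0.142), and that for TMEM177 without 8 h (adjusted p = 0.0514).

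By GENCODE 29 on GRCh38, CYR61 (ENSG00000142871) lies on chromosome 1, 85580761 to 85583962 (plus strand), ZFP36 (ENSG00000128016) on chromosome 19, 39406813 to 39409412 (plus strand) and MAFF (ENSG00000185022) on chromosome 22, 38200767 to 38216511 (plus strand). EXO5 (ENSG00000164002) lies on chromosome 1, 40508741 to 40516556 (plus strand), GFPT2 (ENSG00000131459) on chromosome 5, 180300690 to 180353387 (minus strand) and RASL11B (ENSG00000128045) on chromosome 4, 52862290 to 52866835 (plus strand). The genes that rose had a median span of 43338 bases from start to end and those that fell 30820, against 35025 for all genes tested. Median GC content of their transcripts was 47.4% and 46.1%, against 49.4%. Across genes the difference correlated with GC content at r = 0.15, 0.08 and 0.15 at 4, 8 and 12 h.

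Immediate early and AP-1 genes were the list with the highest median, and they share EGR1 and FOSL1 with the list of ERK outputs. Of 15 immediate early genes tested 10 rose and 0 fell, against 5.13% and 14.3% of all genes, with a median difference of 1.22 against −0.12. FOSL1, an AP-1 subunit, was at 34.6, 3.41 and 4.96 FPKM at pH 7.4 and 27.2, 49.2 and 44.2 at pH 6.3. The acidic library was the lower one at 4 h, and the gap was seen at 8 and 12 h, where the neutral libraries were far lower (2.03, adjusted p = 0.0193). EGR1, a zinc finger factor induced by serum and ERK, had the reverse order. It was at 4.92, 2.91 and 7.08 FPKM at pH 7.4 and 74.6, 11.5 and 5.26 at pH 6.3, so the gap was widest at 4 h and the groups overlapped (1.66, adjusted p = 0.0328). ATF3, a stress-induced factor of the ATF/CREB family, was high in all acidic libraries, with 16, 6.65 and 7.44 FPKM at pH 7.4 and 59.9, 56.4 and 27.1 at pH 6.3 (2.16, adjusted p = 0.000133). MYC, the growth regulator, was at 34, 15.1 and 14.4 FPKM at pH 7.4 and 54.9, 39 and 22.3 at pH 6.3 and rose by 0.86 (adjusted p = 0.0104). Its neutral and acidic values overlapped. Without 8 h 6 of the 15 genes were called, without 12 h 8 and without 4 h 9, with 1 called lower there. FOSL1 lost its call without 8 h (adjusted p = 0.222) and 12 h (0.17), EGR1 without 4 h (0.198) and 8 h (0.16) and MYC without 8 h (0.13).

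Of 13 genes of ERK output and feedback 7 rose and 0 fell, against 5.13% and 14.3% of all genes (median 1.05). SPRY4, which encodes an inhibitor of receptor tyrosine kinase signalling, was nearly silent in neutral medium at 8 and 12 h. Its level was 3.0, 0.286 and 0.688 FPKM at pH 7.4 and 10.8, 15 and 11 at pH 6.3, without overlap, and it rose by 2.68 (SE 0.36, adjusted p = 0.000573). EPHA2, an ephrin receptor, followed the course of FOSL1, with 37.5, 6.66 and 3.33 FPKM at pH 7.4 and 28.4, 41.7 and 51.5 at pH 6.3 (1.9, adjusted p = 0.0273). At 4 h the acidic library was the lower of the pair for both, and EPHA2 was not called without 8 h (adjusted p = 0.199) or 12 h (0.291). DUSP1, a phosphatase that switches off MAP kinases and is also a glucocorticoid target, was at 60.4, 71.4 and 51.9 FPKM in neutral and 152, 214 and 175 in acidic medium. It rose by 1.54 (SE 0.16, adjusted p = 0.000133), with no overlap and a similar gap at each hour. The list counted 9 calls without 4 h, 3 without 8 h and 4 without 12 h. At 4 h the list median was 0.68 for immediate early genes and 0.16 for ERK output.

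YAP and TEAD drive genes of cell adhesion and matrix, and in this list 11 of 21 genes rose and 0 fell, against 5.13% and 14.3% of all genes (median 0.59). ANKRD1, a titin-associated repeat protein used as a YAP readout, was at 73.3, 33.2 and 49.3 FPKM at pH 7.4 and at a steady 229, 214 and 218 at pH 6.3. The groups did not overlap, and the difference was 2.14 (SE 0.19, adjusted p = 5.73e-05). GADD45A, a growth arrest gene that is also a p53 and stress target, was at 32.2, 13.4 and 13.8 FPKM at pH 7.4 and 49.9, 76.8 and 64.7 at pH 6.3 and rose by 1.73 (adjusted p = 0.00159). CTGF, the second of the CCN family, is named here because it was among the 6 calls of the small fit. It was at 149.6, 159 and 124 FPKM at pH 7.4 and 511, 527 and 322 at pH 6.3 (1.62, adjusted p = 0.000132). The count was 13 without 4 h (with 2 lower), 5 without 8 h and 7 without 12 h. The 19 actin and SRF contractile genes, which partly share these regulators, had 0 calls in either direction in limma (0 higher and 1 lower at an unadjusted p below 0.05) and a median of 0.07.

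Of 17 FOXO targets 8 rose and 1 fell, against 5.13% and 14.3% of all genes. Of the 8, 7 were kept without any 1 hour, as were 130 of the 607 genes that rose in all. FOXO factors drive genes of growth arrest when insulin signalling is low, and TXNIP and PDK4 are among the 8. BCL6, a transcriptional repressor, was at 11.2, 15 and 14.4 FPKM in neutral and 50.6, 57.4 and 40.6 in acidic medium, apart at all hours (1.79, adjusted p = 9.11e-05). CCNG2, an unusual cyclin linked to cell cycle exit, was at 25.9, 34.7 and 42.2 FPKM at pH 7.4 and 47.2, 95.9 and 104 at pH 6.3 (1.19, adjusted p = 0.000596). PIK3R3, a regulatory subunit of PI3 kinase, was the one that fell, with 3.49, 7.72 and 9.86 FPKM at pH 7.4 and 3.69, 1.63 and 1.84 at pH 6.3 (−1.2), and its call was lost without 8 h (adjusted p = 0.221) and 12 h (0.24). In the list of MondoA and glucose response genes 2 of 9 rose (5.13% of all genes), TXNIP and KLF11 (0.63). ARRDC4, the arrestin-domain paralog of TXNIP and a MondoA target too, was barely expressed at this stage. It was at 0.687, 0.648 and 1.16 FPKM at pH 7.4 and 1.05, 1.13 and 2.22 at pH 6.3, a difference of 0.41 that was not past the threshold (adjusted p = 0.072).

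Glucocorticoid targets split into 7 that rose and 2 that fell among 14 tested, where 5.13% and 14.3% of all genes did, with the agonist present in both media. TSC22D3, the glucocorticoid-induced leucine zipper, was at 6.73, 29 and 22.3 FPKM in neutral medium and 8.99, 59.6 and 223 in acidic medium. The 2 libraries of 4 h were close and those of 12 h were the farthest apart (1.55, adjusted p = 0.0147), and the call was lost without 8 h (adjusted p = 0.0529) and 12 h (0.103). PDK4, a kinase that shuts pyruvate dehydrogenase and responds to glucocorticoids and FOXO, was apart from the start, with 2.04, 4.25 and 2.78 FPKM at pH 7.4 and 18.4, 21 and 24.8 at pH 6.3 (2.5, adjusted p = 9.11e-05). FKBP5, a chaperone that restrains the receptor and is a standard reporter of its activity, went the other way. It was at 21.4, 46.1 and 51.6 FPKM at pH 7.4 and 10.8, 13.3 and 13 at pH 6.3, and it fell by 1.51 on the log2 scale (SE 0.22, adjusted p = 0.000866), without overlap and without losing its call at any hour left out. SCNN1A, the alpha subunit of the epithelial sodium channel, was alike at 4 h and lower in acid after that, with 8.34, 45 and 59.9 FPKM at pH 7.4 and 8.18, 10.5 and 20.7 at pH 6.3 (−1.17, adjusted p = 0.0169, but 0.203 without 8 h and 0.131 without 12 h). Both genes that fell are ones that the receptor induces.

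In the core clock 3 of 16 genes rose and 0 fell, against 5.13% and 14.3% of all genes. NR1D1 encodes REV-ERB alpha, a repressor of ARNTL, and was at 8.67, 3.95 and 0.852 FPKM at pH 7.4 and 17.3, 33.2 and 36.2 at pH 6.3. Neutral values were lower at each later hour and acidic values higher, so the gap at 12 h was the widest (2.68, adjusted p = 0.0194). RORA, an activator that competes with it, was at 3.51, 2.25 and 2.29 FPKM at pH 7.4 and 5.89, 9.24 and 11.3 at pH 6.3 (1.39, adjusted p = 0.00415). DBP, an output factor of the PAR bZIP family, was at 1.66, 6.92 and 5.69 FPKM at pH 7.4 and 5.83, 7.46 and 18.6 at pH 6.3 (1.0, adjusted p = 0.0451). Each of the 3 calls was lost without at least 1 hour: NR1D1 had an adjusted p of 0.125 without 8 h, RORA 0.0554 without 8 h and DBP 0.3 without 12 h.

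The other clock genes were not past the threshold over the window, and several were farthest apart at 12 h. PER1 and CRY1 were already higher in acid at 8 h. PER1, the period gene that glucocorticoids induce directly, was at 14.7, 14.5 and 7.85 FPKM at pH 7.4 and 14, 40.9 and 84.6 at pH 6.3 (1.55, adjusted p = 0.0693). CRY1, a repressor of CLOCK and ARNTL, was at 22.6, 29.7 and 30.5 FPKM at pH 7.4 and 21.9, 48.5 and 94.8 at pH 6.3 (0.75, adjusted p = 0.284). Its paralog CRY2 was lower in acid at 4 and 8 h and higher at 12 h, with 3.72, 8.65 and 8.68 FPKM at pH 7.4 and 2.15, 5.55 and 19.3 at pH 6.3. TEF, a relative of DBP, did the same, with 7.61, 18.5 and 11 FPKM at pH 7.4 and 7.09, 12 and 25.6 at pH 6.3. PER2 was at 1.93, 2.32 and 1.63 FPKM at pH 7.4 and 1.0, 2.64 and 8.63 at pH 6.3, PER3 at 10.2, 21.4 and 14.2 at pH 7.4 and 13, 17.6 and 23.1 at pH 6.3, and NR1D2 at 35.5, 36.6 and 13.2 at pH 7.4 and 40.6, 51.3 and 65.1 at pH 6.3. The 3 period genes, both cryptochromes, NR1D2 and TEF were thus all highest in the acidic library of 12 h, which was compared with a shallow neutral one. The activators were not highest there: ARNTL was at 21.2, 14.8 and 22.3 FPKM at pH 7.4 and 15.3, 17.2 and 16.5 at pH 6.3, CLOCK at 32.8, 29.2 and 29.8 at pH 7.4 and 38.7, 29.1 and 17.9 at pH 6.3, and NPAS2 at 17.6, 20.4 and 15.7 at pH 7.4 and 27.7, 24.4 and 15.2 at pH 6.3. Of the E-box repressors BHLHE40 was at 64.4, 42.6 and 45.3 FPKM at pH 7.4 and 58, 55.3 and 64.7 at pH 6.3 and BHLHE41 at 79.9, 126 and 87.1 at pH 7.4 and 96.1, 36.5 and 48.6 at pH 6.3. NFIL3, which opposes DBP, was at 9.83, 10.3 and 14.2 FPKM at pH 7.4 and 10.6, 11.7 and 8.35 at pH 6.3. At 12 h 9 of the 16 clock genes were at least 2-fold higher in acid (5.69% of all genes tested) and at 4 h 1 was (1.75%). CIART, HLF and RORB lay below the filter, with at most 0.357, 1.52 and 0.586 FPKM.

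In the endoplasmic reticulum stress list most genes rose. Of 20 chaperones, disulfide isomerases and stress factors 13 rose and 0 fell, against 5.13% and 14.3% of all genes (median 0.52), and the median was 0.13 at 4 h, 0.67 at 8 h and 1.05 at 12 h. HSPA5 (BiP), the main chaperone of this compartment and the sensor of unfolded protein, was at 296, 204 and 187 FPKM in neutral and 425, 916 and 859 in acidic medium. The groups did not overlap, and the difference was 1.63 (SE 0.26, adjusted p = 0.00163). HERPUD1, a membrane protein of the degradation pathway, was at 278, 86.7 and 94.8 FPKM at pH 7.4 and 310.2, 853 and 591 at pH 6.3 (2.02, adjusted p = 0.00471). SDF2L1, a cofactor of HSPA5, was at 10.0, 4.68 and 4.36 FPKM at pH 7.4 and 19.7, 30.2 and 35.7 at pH 6.3 (2.05, adjusted p = 0.0132). In 12 of the 13, all but DNAJB11, the libraries of the media did not overlap, as in 456 of all 607 genes that rose. The count of calls depended on the hours, as did that of all genes that rose (1264, 146 and 236 without 4, 8 and 12 h). In the list 16 were called without 4 h, and 3 without 8 h and 3 without 12 h. Without 8 h and without 12 h HERPUD1 had an adjusted p of 0.0765 and 0.0554 and SDF2L1 of 0.12 and 0.121. With quantile normalization 9 were called.

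Transcription of these genes in stressed cells runs through the endoplasmic reticulum stress element (ERSE), made of CCAAT and CCACG with 9 bases between them, which the factors NF-Y and ATF6 bind. Promoter windows of 250 bases before to 50 after a start (RefSeq, GRCh38.p14) were found for 9607 of the genes tested, in 14230 windows. The element, read on both strands, was in 0.126% of all windows, in 1.04% of those of genes that rose and in 0.0519% of those of genes that fell. Of the 26 windows of the stress list 34.6% held it, in 7 genes. It contains the shorter CCAAT box by construction. The upstream stretches of the 6 genes that rose and held the element are shown, 5′ to 3′ along each gene, with the element in capitals. In HSP90B1 it occurs both as spelled and as its reverse complement, and in CALR as the reverse complement. A match describes these letters and is not a binding site shown in these cells.
HSPA5, chr9:125241354-125241453, minus strand: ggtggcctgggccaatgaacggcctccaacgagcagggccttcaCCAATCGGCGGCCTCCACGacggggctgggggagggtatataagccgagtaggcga
HSP90B1, chr12:103930200-103930359, plus strand: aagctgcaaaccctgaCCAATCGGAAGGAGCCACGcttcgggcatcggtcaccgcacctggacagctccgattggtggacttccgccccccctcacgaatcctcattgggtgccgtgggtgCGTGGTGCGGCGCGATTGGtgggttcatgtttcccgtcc
CALR, chr19:12938359-12938458, plus strand: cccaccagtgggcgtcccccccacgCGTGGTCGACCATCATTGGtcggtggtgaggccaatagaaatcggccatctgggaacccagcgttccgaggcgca
XBP1, chr22:28800570-28800669, minus strand: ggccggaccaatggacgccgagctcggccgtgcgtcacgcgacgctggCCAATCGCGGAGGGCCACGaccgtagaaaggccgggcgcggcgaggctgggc
PDIA6, chr2:10812816-10812915, minus strand: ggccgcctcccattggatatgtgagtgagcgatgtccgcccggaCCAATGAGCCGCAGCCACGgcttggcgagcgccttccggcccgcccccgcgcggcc
CANX, chr5:179698739-179698838, plus strand: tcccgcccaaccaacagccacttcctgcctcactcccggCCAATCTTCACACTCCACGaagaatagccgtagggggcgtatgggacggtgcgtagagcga

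These 6 genes spanned a range of effects. XBP1, the factor that is spliced to its active form in stress, was at 68.6, 45.3 and 50.4 FPKM at pH 7.4 and 107, 134 and 111 at pH 6.3 (1.1, adjusted p = 0.000375). The chaperone HSP90B1 (GRP94) was at 763, 702 and 569 FPKM at pH 7.4 and 896, 1147 and 1227 at pH 6.3 (0.68, adjusted p = 0.00542). Lectin chaperone CALR was at 799.7, 692 and 694 FPKM at pH 7.4 and 980.5, 1057 and 1078 at pH 6.3 (0.51, adjusted p = 0.0295), and its membrane-bound relative CANX at 424, 374 and 402 FPKM at pH 7.4 and 445, 583 and 508 at pH 6.3 (0.35, adjusted p = 0.04). PDIA6, a disulfide isomerase, was at 534, 506 and 484 FPKM at pH 7.4 and 575, 709.6 and 705 at pH 6.3 (0.38, adjusted p = 0.0221). In each of these 5 genes the acidic libraries were above all neutral ones, by less than 2-fold at 4 h. They are named because their windows hold the element.

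Other promoter letters had a narrower spread. For the serum response factor box, a CArG box, only a single exact spelling was searched. This spelling was in 7 of the 14230 windows (0.0492%) and in 2 of those of genes that rose, EGR1 and RHOJ. CArG boxes of other spellings were not searched, so the counts and the capitals below leave them out. The searched spelling stands 105 bases before the start of EGR1. The stretch of EGR1 at chr5:138465339-138465438, plus strand, is shown with this spelling in capitals because that gene was far apart at 4 h.
EGR1: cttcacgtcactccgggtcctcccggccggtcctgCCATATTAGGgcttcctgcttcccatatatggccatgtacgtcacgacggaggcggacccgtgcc
The cyclic AMP element TGACGTCA was in 4.05% of windows of genes that rose and 3.99% of those that fell, against 2.90% of all. For the TEAD letters GGAATG the shares were 12.3%, 10.9% and 11.6%, although 55.6% of the 18 windows of the YAP and TEAD list held them. E2F letters (TTTCCCGC or TTTGGCGC) were in 2.09% and 4.30% of windows of the genes that rose and fell, 3.45% of all windows and 40.0% of the 40 windows of G1/S genes. The glucocorticoid element was in 1 window in all and in 0 of those of called genes.

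Of 24 cholesterol synthesis genes, which SREBP2 controls, 9 rose and 1 fell, against 5.13% and 14.3% of all genes, and the list median was 0.36 at 4 h, 0.47 at 8 h and −0.11 at 12 h. MSMO1, a sterol demethylase, was at 53.8, 82 and 99.3 FPKM at pH 7.4 and 156, 239 and 165 at pH 6.3 (1.26, adjusted p = 0.000354). STARD4, a sterol carrier, was at 48.4, 49.2 and 52 FPKM at pH 7.4 and 72.8, 133 and 131 at pH 6.3 (1.1, adjusted p = 0.00305, and 0.0508 without 8 h). The calls were 8 higher and 6 lower without 4 h, 3 and 0 without 8 h, and 10 and 0 without 12 h. Fatty acid synthesis genes gave 2 higher (ELOVL5 and SCD) and 1 lower (ME1) of 12 (against 5.13% and 14.3% of all genes), and none of these 3 calls held without 8 h (adjusted p = 0.104, 0.155 and 0.166).

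Targets of ATF4, the factor of the integrated stress response, were farthest apart at 12 h. The median of 32 genes was −0.34 at 4 h, 0.33 at 8 h and 0.92 at 12 h, and 3 rose over the window and 0 fell, against 5.13% and 14.3% of all genes. DDIT3 (CHOP), a stress factor linked to cell death, was at 12.7, 11.4 and 13.9 FPKM at pH 7.4 and 40.0, 52.8 and 48.8 at pH 6.3, apart at each hour (1.81, adjusted p = 0.000227). ATF4 itself was at 349, 194 and 198 FPKM at pH 7.4 and 334, 429 and 422 at pH 6.3, level at 4 h (0.72, adjusted p = 0.0142, and 0.17 without 8 h). SESN2, an inhibitor of mTORC1 under ATF4 and p53, was at 7.03, 5.47 and 5.67 FPKM at pH 7.4 and 5.46, 18.2 and 19.5 at pH 6.3 and missed the threshold (0.96, adjusted p = 0.0632). DDIT4 (REDD1), another inhibitor of mTORC1, was at 13.8, 15.6 and 20.6 FPKM at pH 7.4 and 7.06, 24.2 and 64.1 at pH 6.3, lower in acid at 4 h and higher at 12 h (0.44, adjusted p = 0.397). Without 4 h 16 of the 32 genes were called higher, and without 12 h the list median was −0.01.

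p53 targets gave a similar order in time, with medians of −0.21, 0.37 and 1.24 and with 5 of 21 genes that rose and 0 that fell, against 5.13% and 14.3% of all genes. CDKN1A (p21), which blocks cyclin-dependent kinases, was at 59.2, 40.1 and 38.5 FPKM in neutral and 49.7, 144 and 265 in acidic medium (1.44, adjusted p = 0.0228). BTG2, an antiproliferative gene, was at 9.91, 8.79 and 8.29 FPKM at pH 7.4 and 10.8, 29.3 and 42.1 at pH 6.3 (1.32, adjusted p = 0.00852). Without 8 h and without 12 h 0 of the 21 were called, where 146 and 236 of all 11838 genes rose. CDKN1A had an adjusted p of 0.174 and 0.257 in these fits. Among 36 genes of the mTOR pathway 2 rose and 1 fell, near the background for increases and below it for decreases. These were RICTOR, the defining subunit of mTORC2 (21.9, 17.6 and 19.1 FPKM at pH 7.4 and 21.7, 33.6 and 38.6 at pH 6.3), FNIP1, a folliculin partner (11, 12.8 and 11.9 at pH 7.4 and 13.8, 18.6 and 22.7 at pH 6.3), and RRAGA, a GTPase that recruits mTORC1 to lysosomes (31, 35.8 and 40.3 at pH 7.4 and 30.5, 19.2 and 16.1 at pH 6.3). None of the 3 kept its call without 8 h (adjusted p = 0.251, 0.144 and 0.14).

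SLC2A3, a high-affinity glucose transporter (GLUT3), was at 12.2, 6.77 and 13.2 FPKM at pH 7.4 and 36.4, 48.6 and 48.1 at pH 6.3, without overlap (1.99, SE 0.23, adjusted p = 0.000247). HK2, an inducible hexokinase, was at 8.28, 1.78 and 1.63 FPKM at pH 7.4 and 5.76, 14.1 and 19 at pH 6.3, lower in acid at 4 h (1.64, adjusted p = 0.0213, and 0.203 without 8 h). PFKP, a phosphofructokinase, fell slightly, with 49.2, 39.7 and 29.3 FPKM at pH 7.4 and 34.4, 28.4 and 25.2 at pH 6.3 (−0.39), a call lost without 8 h (adjusted p = 0.165) and with either scaling. Those were the 3 calls among 21 glycolysis genes, where 19.5% of all genes were called in either direction. In the pyruvate dehydrogenase switch 3 of 14 genes rose and 4 fell, against 5.13% and 14.3% of all genes. The kinases PDK4 and PDK1 rose (PDK1 6.96, 4.9 and 6.11 against 13, 16.7 and 12.4 FPKM, 1.1, adjusted p = 0.00262), as did the phosphatase PDP1 (0.62). Subunits DLAT and DLD fell by 0.7 and 0.9, as did PDHB and the phosphatase regulator PDPR. Without 8 h the calls were 2 higher and 1 lower, without 12 h 2 and 0. Among 17 hypoxia genes PDK1 was the only call, where 5.13% of all genes rose and 14.3% fell. At an unadjusted p below 0.05 in limma 8 were higher and 1 lower, against 1160 and 2952 of all 11838 genes. The list median was 0.32 over the window and 0.10, 0.31 and 0.58 at 4, 8 and 12 h. Without 4 h 7 were called higher and 1 lower.

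Proton and bicarbonate handling genes had 0 calls by limma among 13 tested (1 higher and 0 lower at an unadjusted p below 0.05), where 5.13% and 14.3% of all genes were called. SLC4A2, an anion exchanger, was at 43.5, 35.9 and 31.9 FPKM at pH 7.4 and 28.8, 19.2 and 21.8 at pH 6.3, lower in all 3 acidic libraries (−0.66, adjusted p = 0.198). SLC4A7, a sodium-bicarbonate cotransporter, was at 21.9, 13.6 and 13.2 FPKM at pH 7.4 and 13.3, 21.4 and 25.9 at pH 6.3, and BSG, the chaperone of lactate transporters, at 189, 171 and 186 at pH 7.4 and 268, 229.9 and 279 at pH 6.3. SLC16A1 (MCT1), a lactate transporter, was at 73.2, 51 and 46 FPKM at pH 7.4 and 47.2, 54.3 and 47.3 at pH 6.3. The carbonic anhydrases CA2 and CA12 were at 26.8, 10.4 and 11.1 and 13.7, 11.3 and 10.4 FPKM at pH 7.4 and 21.3, 24 and 14 and 19.8, 15.6 and 11.4 at pH 6.3, and CA13 was at 4.42, 5.97 and 8.63 at pH 7.4 and 6.34, 4.84 and 3.09 at pH 6.3. The acid-sensing channel ASIC1 was at 4.45, 3.99 and 4.27 FPKM at pH 7.4 and 6.52, 5.49 and 5.14 at pH 6.3, and ASIC3 at 3.26, 2.08 and 4.52 at pH 7.4 and 1.29, 1.92 and 2.03 at pH 6.3. Of the proton-sensing receptors GPR4 was at 2.38, 2.66 and 2.3 FPKM at pH 7.4 and 1.35, 1.48 and 1.96 at pH 6.3, while GPR65 lay below the filter with at most 0.0471 FPKM. SLC4A8 stayed between 2.30 and 3.90 FPKM and TMEM175 between 0.916 and 1.60. The smallest adjusted p of these 13 was that of CA12 (0.112).

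At 4 h alone the widest gaps in the lower direction were those of CXCL8 and TRAF1. CXCL8 (interleukin 8), a neutrophil chemokine, was at 109, 3.96 and 3.02 FPKM at pH 7.4 and 10.2, 6.84 and 4.41 at pH 6.3, so 1 neutral library stood far above the other 5 and the window difference was not past the threshold (−0.73, adjusted p = 0.386). TRAF1, an adaptor that NF-kB induces, was at 18.3, 2.19 and 1.45 FPKM at pH 7.4 and 2.0, 1.02 and 0.381 at pH 6.3 (−1.39, adjusted p = 0.00979). CCL2, a monocyte chemokine, was at 133, 44.2 and 42.7 FPKM at pH 7.4 and 33.4, 40.2 and 23.7 at pH 6.3 (−0.97, adjusted p = 0.0158), and its call was lost without 4 h (adjusted p = 0.0629) and 12 h (0.064). NFKBIA, the inhibitor that closes the NF-kB loop, went up, with 108, 60.8 and 39.8 FPKM at pH 7.4 and 196, 126 and 106 at pH 6.3 (1.09, adjusted p = 0.000932). IRF1, an interferon factor under the same control, fell, with 11.2, 5.47 and 6.06 FPKM at pH 7.4 and 2.99, 0.982 and 2.32 at pH 6.3 (−1.47, adjusted p = 0.00273). The 17 inflammatory genes counted 1 higher and 1 lower (all genes, 5.13% and 14.3%), and their median was −0.46 at 4 h, 0.66 at 8 h and 0.43 at 12 h. Of the 5 widest gaps at 4 h in each direction the others not yet described were ABCB1, a drug efflux pump (9.56, 3.2 and 0.953 FPKM at pH 7.4 and 1.47, 2.08 and 1.32 at pH 6.3), and ZNF350 (6.57, 3.95 and 3.8 at pH 7.4 and 0.779, 2.61 and 3.68 at pH 6.3) on the lower side. On the higher side were HMSD (2.27, 7.24 and 13.4 at pH 7.4 and 24.7, 2.52 and 14.5 at pH 6.3) and BAGE5, which was listed at 0 in 4 of the 6 libraries and at 81.9 FPKM in the neutral one of 12 h, so its 4 h value has no stable direction.

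Of 35 G1/S genes 7 fell and 0 rose, near the 14.3% of all genes that fell, with medians of 0.08 at 4 h, −0.34 at 8 h and −0.61 at 12 h. FAM111B, a protease linked to replication, was at 18.2, 21.2 and 22.7 FPKM in neutral medium and 12.7, 5.55 and 2.99 in acidic medium, without overlap (−1.61, SE 0.27, adjusted p = 0.00212). GINS3, a subunit of the replicative helicase complex, was at 15.6, 16.7 and 16.1 FPKM at pH 7.4 and 9.58, 6.49 and 6.93 at pH 6.3 (−1.0, adjusted p = 0.000866). MCM10, an initiation factor, was at 25.6, 27.7 and 24.2 FPKM at pH 7.4 and 18.7, 8.12 and 9.22 at pH 6.3 (−1.13, adjusted p = 0.00465, and 0.0731 without 8 h). Among 34 G2/M genes 8 rose and 0 fell (against 5.13% and 14.3% of all genes), by 0.40 to 0.68. BUB1B, a spindle checkpoint kinase, was at 41.7, 58.6 and 50.8 FPKM at pH 7.4 and 68.6, 71.4 and 77.1 at pH 6.3 (0.53, adjusted p = 0.00711), and NEK2, a centrosome kinase, at 19.9, 26.3 and 22.7 at pH 7.4 and 31.3, 36.8 and 44.1 at pH 6.3 (0.68, adjusted p = 0.00925, and 0.0826 without 12 h). The G1/S count was 16 without 4 h, 3 without 8 h and 4 without 12 h, and the G2/M count 6 (with 4 lower), 2 and 3. Of 14 G1 cyclins and CDK inhibitors 4 rose and 2 fell (against 5.13% and 14.3% of all genes), among them CCND2 (cyclin D2), with 9.83, 7.36 and 6.45 FPKM at pH 7.4 and 13.3, 17.8 and 22.5 at pH 6.3 (1.08, adjusted p = 0.00262). RBL1, a retinoblastoma relative, was higher in acid at 4 h and lower after, with 8.46, 13 and 15 FPKM at pH 7.4 and 11.7, 4.38 and 2.74 at pH 6.3 (−1.02, adjusted p = 0.0447, and 0.26 without 8 h).

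Among 41 genes of ribosome biogenesis and MYC function 13 fell and 2 rose, where 14.3% and 5.13% of all genes did. RRS1, an assembly factor of the large subunit, was at 28.4, 15.5 and 10.3 FPKM at pH 7.4 and 8.12, 5.8 and 5.83 at pH 6.3, without overlap (−1.23, adjusted p = 0.000737). POLR1A, the largest subunit of RNA polymerase I, was at 16.1, 16.1 and 15.4 FPKM at pH 7.4 and 9.04, 5.13 and 6.04 at pH 6.3 (−1.16, adjusted p = 0.00101). NAT10, an RNA acetyltransferase of the nucleolus, was at 45.2, 38.8 and 35.4 FPKM at pH 7.4 and 21.6, 21.7 and 16.3 at pH 6.3 (−0.97, adjusted p = 0.00114). The list median was −0.58 at 4 h, the lowest of all lists at that hour, 0.08 at 8 h and 0.22 at 12 h. At 4 h 8 of the 41 were at least 2-fold lower, where 2.04% of all genes were. Without 8 h 7 were called lower, without 12 h 10 and without 4 h 13, in that last fit beside 9 higher. The 79 ribosomal protein genes had 5 that rose and 0 that fell, near the background of 5.13%. In 66 of the 79 the acidic libraries were nevertheless above all neutral ones, where 10.4% of all genes were, and the median was 0.27, 0.31 and 0.37 at the 3 hours. RPL4 was at 3262, 2933 and 2742 FPKM at pH 7.4 and 3910.0, 3760.3 and 3766 at pH 6.3 (0.36, adjusted p = 0.00976, and 0.0735 without 8 h). Many of these genes have near-identical pseudogenes, and the count of 5 moved with the scaling, to 1 with quantile normalization and 28 with upper-quartile scaling.

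Of 13 mitochondrial genes 6 fell and 0 rose, where 14.3% and 5.13% of all genes did (median −0.37). The median was −0.06 with quantile normalization (5 fell) and −0.28 with upper-quartile scaling (4 fell). Of 49 nuclear genes of oxidative phosphorylation 0 passed the threshold in limma (median −0.05, with 2 higher and 4 lower at an unadjusted p below 0.05). MT-ND5, a subunit of complex I, was at 1417, 1616 and 1561 FPKM in neutral and 1036, 1157 and 984 in acidic medium, without overlap (−0.53, SE 0.07, adjusted p = 0.000744). MT-CYB, of complex III, was at 4998, 4979.7 and 4987 FPKM at pH 7.4 and 4201, 3463 and 2795 at pH 6.3 (−0.54, adjusted p = 0.00312). MT-ND6, encoded on the other strand, was at 1787, 2125 and 1883 FPKM at pH 7.4 and 1374, 1206 and 1026 at pH 6.3 (−0.69, adjusted p = 0.00107). The call for the 13 genes was 11 without 4 h, 4 without 8 h and 3 without 12 h. MTERF1, a factor that binds mitochondrial DNA, fell as well, with 10.5, 14.9 and 15.2 FPKM at pH 7.4 and 4.74, 2.26 and 2.83 at pH 6.3 (adjusted p = 0.000313).

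Of 15 zinc finger transcription factor genes 6 fell and 0 rose, where 14.3% and 5.13% of all genes did (median −0.53), such as ZNF780A with 4.03, 5.03 and 4.84 FPKM at pH 7.4 and 2.41, 0.825 and 2.12 at pH 6.3 (−1.06, adjusted p = 0.0047), but 0 of the 6 calls held without 8 h (adjusted p = 0.0655). NRF2 targets gave 3 that fell of 17, near the 14.3% of all genes, with NQO1, a quinone reductase, at 90.7, 114 and 124 FPKM at pH 7.4 and 74.1, 64.7 and 56.9 at pH 6.3 (−0.74, adjusted p = 0.00468, and 0.0527 without 8 h). Of 12 heat shock genes 3 rose (5.13% of all genes), led by BAG3 (0.73, adjusted p = 0.00796, and 0.0998 without 8 h). Without 8 h 0 of the 12 were called, and with quantile normalization 1 was. Of 5 metallothionein and zinc genes 0 were called by limma (0 higher and 0 lower at an unadjusted p below 0.05). Among 27 matrix genes 1 rose and 1 fell, against 5.13% and 14.3% of all genes. FN1, fibronectin, fell, with 1828, 2255 and 2190.4 FPKM at pH 7.4 and 1442, 1411 and 1272 at pH 6.3 (−0.6, adjusted p = 0.00374), and PLAUR, the urokinase receptor, rose (1.21, adjusted p = 0.0192, and 0.161 without 8 h). Of 40 lysosome and V-ATPase genes 1 rose and 3 fell, fewer than the 5.13% and 14.3% of all genes. Without 8 h and without 12 h 0 of the 40 were called, where 146 and 236 of all 11838 genes rose and 367 and 613 fell. Of 20 interferon-induced genes 1 rose and 1 fell, against 5.13% and 14.3% of all genes. The 2 calls (both lower, where 14.3% of all genes fell) among 8 histone genes, HIST1H2AC (4.79, 22.7 and 25.1 FPKM at pH 7.4 and 4.97, 3.39 and 3.67 at pH 6.3) and HIST1H2BD, were of genes level at 4 h and lost without 8 h (adjusted p = 0.124 and 0.146). One of 12 housekeeping genes fell (14.3% of all genes), TBP (−0.96, adjusted p = 0.00715, and 0.0655 without 8 h).

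**Figure D3:**
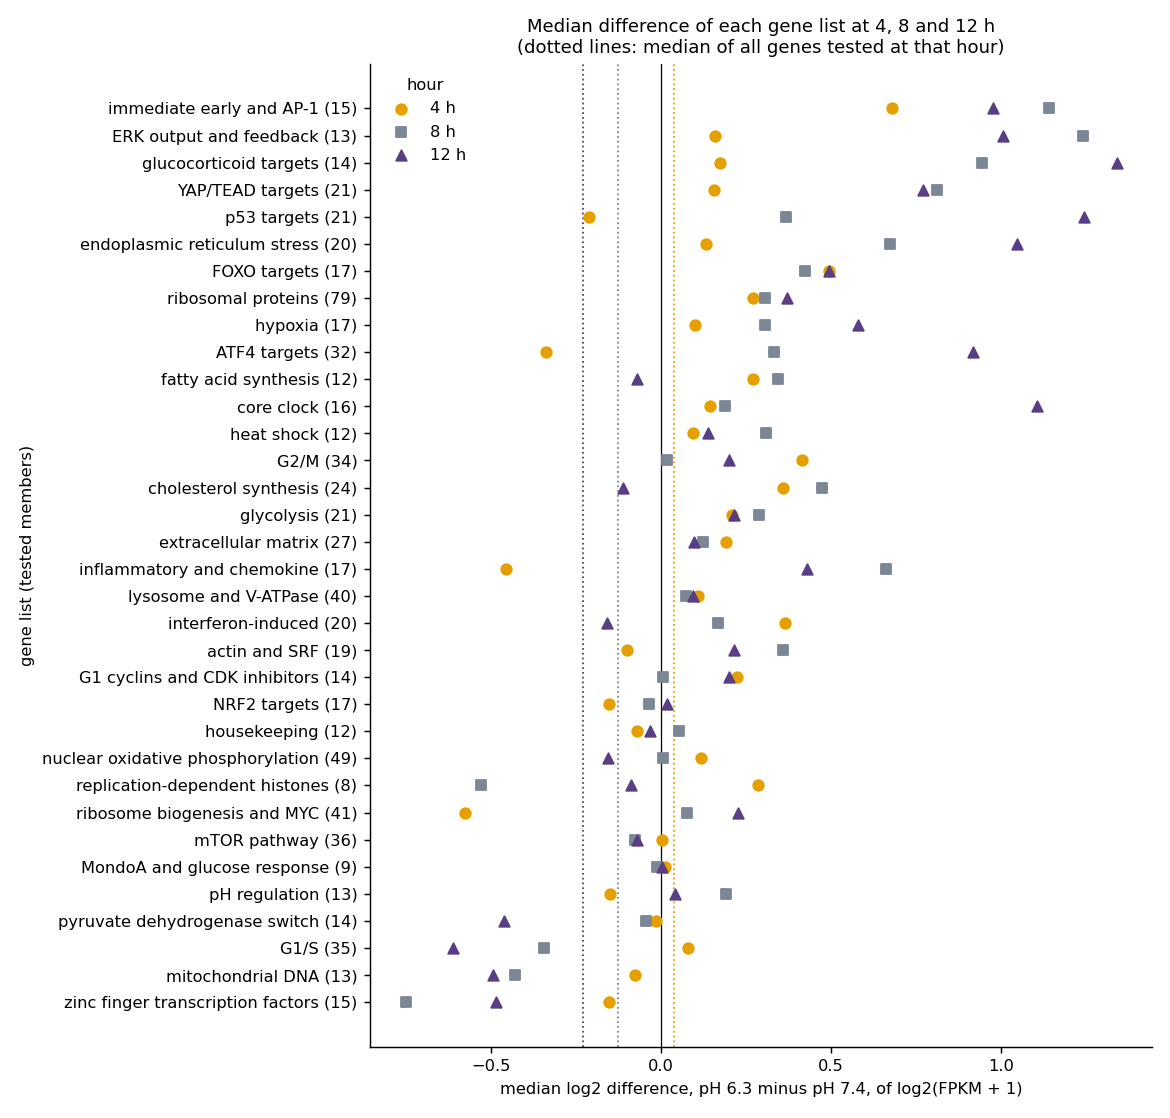
Median log2 difference (pH 6.3 minus pH 7.4) at 4 h (circles), 8 h (squares) and 12 h (triangles) of the gene lists with at least 8 tested members, with the number tested in brackets and the median of all genes at each hour as a dotted line. Immediate early genes lead at 4 h (0.68) and ribosome biogenesis is lowest there (−0.58). At 12 h the glucocorticoid, p53 and core clock lists are highest (1.34, 1.24 and 1.11), and the ATF4 list reaches 0.92.

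The acid effect of the first 12 h was then set against that of 16 to 24 h, from the same set of dishes, by the difference of the 2 effects in the same model. It was greater early in 706 genes (5.96%) and smaller in 642 (5.42%). EGR1 had the largest gap, since at 16 to 24 h its mean level was 16.8 against 1.7 FPKM (pH 7.4 against pH 6.3), the reverse of the early order (difference of effects 4.37, SE 0.7, adjusted p = 0.00612). MAFF, ZFP36, SPRY4 and ANKRD1 were also further apart early, by 1.82, 1.52, 1.84 and 1.4 (adjusted p = 0.017, 0.0108, 0.0365 and 0.0111). Each of them was named for the size of its early difference, a choice that favours a wider gap early. KRT75, a keratin, RAB11FIP4, an endosome regulator, LCTL, the receptor gene C3AR1 and ENC1 were not past the threshold in the first 12 h and were lower in acid at 16 to 24 h. KRT75 was at 12, 7.51 and 12.2 FPKM at pH 7.4 and 19.8, 9.11 and 4.52 at pH 6.3 in the first 12 h and at 30.5 against 1.8 FPKM at 16 to 24 h (difference of effects 3.38, adjusted p = 0.00506). RAB11FIP4 was at 15.3, 14.4 and 30.6 FPKM at pH 7.4 and 30.0, 18.5 and 14.7 at pH 6.3 early and at 76.2 against 12.2 FPKM later (2.71, adjusted p = 0.0141). In ENC1 and RAB11FIP4 the acidic library was the higher one at 4 h and the lower one at 12 h.

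In the other direction TSC22D3 led, with 11.5 against 457 FPKM at 16 to 24 h and a difference of effects of −3.68 (SE 0.54, adjusted p = 0.00519). TXNIP and ARRDC4 were smaller early by −1.55 and −1.68 (adjusted p = 0.00873 and 0.00506). The acute-phase genes SAA1 and SAA2, which are near-identical, were not past the threshold early: SAA1 was at 3.33, 8.71 and 13 FPKM at pH 7.4 and 1.25, 3.53 and 13.5 at pH 6.3, then at 12.8 against 62.7 FPKM (−2.76, adjusted p = 0.0114). Of the clock genes CRY2 and TEF were smaller early (−2.43 and −2.33, adjusted p = 0.0163 and 0.0197), and ARNTL, which was at 38.2 against 8.61 FPKM at 16 to 24 h, had the opposite sign (1.8, adjusted p = 0.0111). GSDMB, a gasdermin, was at 10.6, 12.5 and 12.8 FPKM at pH 7.4 and 5.11, 9.74 and 12.1 at pH 6.3 early and at 8.69 against 35.4 FPKM later (−2.26, adjusted p = 0.00506). The counts fell to 86 and 71 without 8 h, and rose to 1423 and 984 without 12 h. Of the 12 named genes 7 lost their call without 8 h. Of the 35 G1/S genes 12 had a greater (less negative) effect early and 0 a smaller one, where 5.96% and 5.42% of all genes did. For mitochondrial DNA 6 of 13 had a greater effect early and 0 a smaller one.

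**Figure D4:**
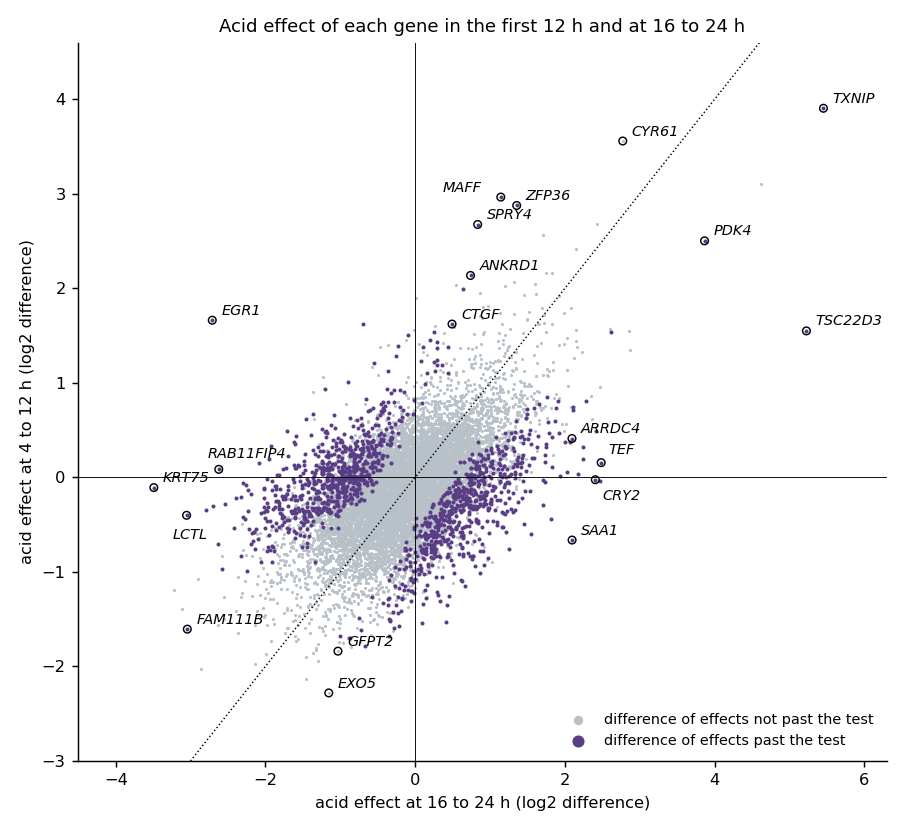
Acid effect (log2 difference, pH 6.3 minus pH 7.4) of each of 11838 genes at 16 to 24 h (horizontal axis) and 4 to 12 h (vertical axis); purple points passed the test of the difference between the effects, and the dotted line marks equal effects. EGR1 lies at 1.66 early and −2.71 later, and TSC22D3 at 1.55 and 5.23.

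Against 28 to 52 h, which came from dishes started a day earlier, the early effect was greater in 1776 genes (15.0%) and smaller in 2294 (19.4%). CXCL14, a chemokine, had the largest gap: it was at 71.3, 50.7 and 48 FPKM at pH 7.4 and 111, 86.3 and 72.3 at pH 6.3 in the first 12 h, higher in acid at each hour, and at 88.5 against 9.18 FPKM later (3.92, SE 0.28, adjusted p = 1.34e-05). FMNL2, a formin, CDH12, a cadherin, and F13A1, a transglutaminase, were also greater early, by 3.15, 3.14 and 3.04, beside KRT75 (3.79) and RAB11FIP4 (3.16). SAA2 and SAA1 had the largest gaps the other way, −4.68 and −4.54 (adjusted p = 2.32e-05 and 3.83e-05). C8orf4 changed sides: it fell early, with 13.3, 4.33 and 4.08 FPKM at pH 7.4 and 2.41, 1.38 and 0.994 at pH 6.3 (−1.53, adjusted p = 0.0193). Its early call was lost whichever hour was left out (adjusted p = 0.0639, 0.0804 and 0.0796 without 4, 8 and 12 h). Later C8orf4 stood at 1.54 against 13.2 FPKM (−3.97, adjusted p = 9.9e-05). CXCL8, whose gap at 4 h came from a high neutral library, was at 3.82 against 31.6 FPKM later (−3.52, adjusted p = 0.00167). The aldo-keto reductase AKR1C1, which shares sequence with its paralogs, and ALG14, of protein glycosylation, were smaller early by −3.49 and −3.2. GFPT2 also reversed, from −1.84 early to 0.62 (−2.46, adjusted p = 3.7e-05). Plate set and time cannot be told apart in this comparison.

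By list, 11 of 13 ERK genes, 12 of 21 YAP and TEAD genes and 9 of 24 cholesterol genes had a greater effect early than at 28 to 52 h, where 15.0% of all genes did. An effect smaller early was seen in 19 of 32 ATF4 targets, 15 of 49 nuclear respiratory genes and 13 of 41 ribosome biogenesis genes, against 19.4%. Of the 607 genes that rose early 387 (63.8%) were also called higher at 16 to 24 h (14.3% of all genes tested), which is 22.9% of the 1690 called there, and 10 were called lower. Of the 1698 that fell early 846 (49.8%) were called lower at 16 to 24 h (26.5% of 3195, and 27.0% of all genes) and 42 higher. At 28 to 52 h 379 (62.4%, 11.8% of 3208) and 891 (52.5%, 21.2% of 4207) had the same call, where 27.1% and 35.5% of all genes were called, and 86 and 262 the opposite one.

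**Figure D5:**
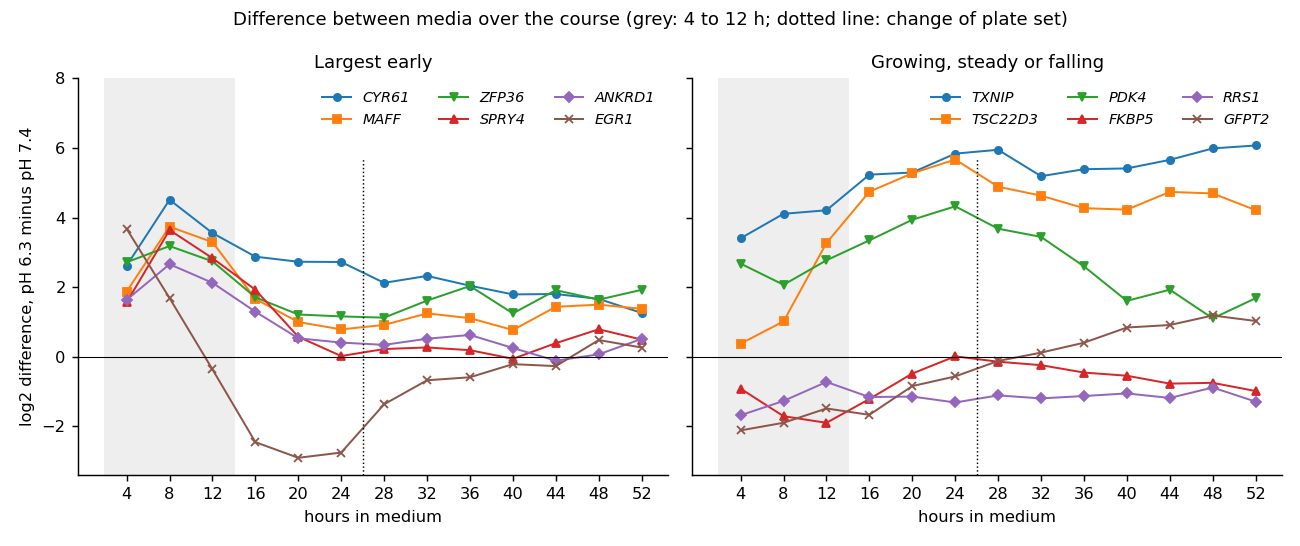
Log2 difference (pH 6.3 minus pH 7.4) at each of the 13 hours for 12 genes, with the first 12 h shaded and the change between sets of dishes dotted; each point compares 2 libraries. CYR61, MAFF, SPRY4 and ANKRD1 peak at 8 h, EGR1 goes from 3.67 at 4 h to −2.91 at 20 h, and TSC22D3 goes from 0.37 at 4 h to 5.67 at 24 h.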

How the data were processed

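RNA from U2OS cells was sequenced from 26 libraries, 13 hours at each of 2 pH values, made with a stranded poly(A) kit per the labels' protocols. RNA integrity numbers ran from 8.7 to 10.0 (median 9.7). The authors deposited 1 table of FPKM, made with STAR and Cufflinks on hg38 per the submitters' processing notes. Tool versions, the annotation and the use of strand were not given in the sources used here, so overlapping and antisense genes cannot be told apart.

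Of 19806 rows 11838 genes averaging 1 FPKM or more were tested as log2(FPKM + 1) in R 4.3.3 by limma 3.58.1 (moderated variances with a mean trend, Benjamini-Hochberg adjustment, threshold 0.05). The model had the hour as a block, an acid effect for each of 4 parts of the course and 9 residual degrees of freedom, and the effects of 28 to 36 h and 40 to 52 h were averaged. Hours pair the samples because, per the labels' protocols, both media of an hour were harvested together. The correlation of the paired deviations was −0.28, −0.20 and −0.18 at 4, 8 and 12 h. These values are negative, so the pairing rests on the protocols and not on a shared deviation. Without the block 888 genes were called higher and 2412 lower, against 607 and 1698 with it.

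Depth was estimated from the spacing of FPKM values below 3.5 fragments in single-transcript genes, of which 86.4% to 94.0% lay within 0.1 of a whole fragment. In each library 81 to 128 values lay within 0.1 of 1 fragment and 0 to 4 between 0.25 and 0.75, so a unit 3 times smaller (a depth 3 times greater) would leave its first steps nearly empty. A further 65 to 99 near-zero values lay below 0.25. Identifiers were matched to GENCODE 29 (19545 of 19806 rows). Windows from RefSeq covered 81.2% of the genes tested.

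The text names the 12 largest increases and 12 largest decreases with 1 direction at the 3 hours and at least 5 FPKM in the higher group, up to 3 genes each way from each of 35 lists, the 6 largest differences each way from the later hours, the 5 widest gaps each way at 4 h, and every core clock and tested pH regulation gene, except some items that are not reported here. The members and lists were chosen with earlier results of these data known. Alternatives changed the block, the libraries fitted, library weights, the pseudocount, the filter, the scaling and the hours.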

Additional observations from a re-analysis of the deposited data

Results flagged for a closer look

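These results were picked out because the acid effect of the first 12 h differed from that of a later part of the course in a test of the difference itself (limma, Benjamini-Hochberg adjusted). Against 16 to 24 h the effect was greater in 706 genes and smaller in 642. The 6 largest in each direction by the naming rule were EGR1 (4.37), KRT75 (3.38), RAB11FIP4 (2.71), LCTL (2.65), C3AR1 (2.45) and ENC1 (2.40) on the greater side, and TSC22D3 (−3.68), SAA1 (−2.76), SAA2 (−2.51), CRY2 (−2.43), TEF (−2.33) and GSDMB (−2.26) on the smaller side, all as differences of log2 effects. Without 8 h RAB11FIP4, C3AR1, ENC1, SAA1, SAA2, CRY2 and TEF were no longer past the threshold.

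Against 28 to 52 h the effect was greater in 1776 genes and smaller in 2294. The largest on the greater side were CXCL14 (3.92), KRT75 (3.79), RAB11FIP4 (3.16), FMNL2 (3.15), CDH12 (3.14) and F13A1 (3.04). On the smaller side they were SAA2 (−4.68), SAA1 (−4.54), C8orf4 (−3.97), CXCL8 (−3.52), AKR1C1 (−3.49) and ALG14 (−3.20). SAA1 and SAA2 are near-identical, so reads may be split between them.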

How the results depend on the processing

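With 1 library for each pH and hour, and a shallow library at 8 h and at 12 h, the counts depended on the libraries that gave the spread and on the hours used. Leaving out 1 hour gave 146 to 1264 genes higher and 367 to 3240 lower at 4 to 12 h, 86 to 1423 and 71 to 1076 with an effect greater and smaller than at 16 to 24 h, and 1136 to 2051 and 1470 to 2781 against 28 to 52 h. Without the 8 and 12 h pairs, where the 4 h pair is assumed to vary like the other hours, these were 45 and 136 genes, and 1726 and 1028 against 16 to 24 h. In the 6 libraries alone with the replicate block 6 and 0 genes were called (738 and 1413 at an unadjusted p below 0.05). With no replicate block the counts were 888 and 2412 at 4 to 12 h, and 1105 and 1040 against 16 to 24 h. Array weights gave 1227 and 2880, and 1376 and 1499 against 16 to 24 h. Quantile normalization gave 1016 lower genes. The cause of these shifts was not tested. The other settings stayed within 1.5 times for all 6 counts. Of the 108 named genes called at 4 to 12 h the call was kept by 50 without 8 h, 63 without 12 h, 102 without 4 h, 104 with no replicate block, 95 with quantile normalization and 102 with upper-quartile scaling. Directions reversed in 10, all without the 8 and 12 h pairs: HK2 (−0.458), ATF4 (−0.0632), CDKN1A (−0.247), FOSL1 (−0.340), EPHA2 (−0.389), PIK3R3 (0.0650), RICTOR (−0.0164), RBL1 (0.426), HIST1H2AC (0.0422) and HIST1H2BD (0.0128). The sign of the list median turned with scaling for the MondoA, mTOR, pH regulation (quantile), NRF2, nuclear respiratory and housekeeping (upper-quartile) and histone lists (either).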
